A study of Mus musculus with 9 samples.

Results

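The 10 genes described here were followed over 9 clonal lines of the mouse embryonic stem cell line E14: the Wnt ligands Wnt3 and Wnt9a, the secreted inhibitor Sfrp1, the DNA-binding factors Tcf7l1, Lef1 and Tcf7, the target genes Axin2 and Sp5, and the primitive streak and mesoderm factors T and Hand1. They are 10 of 35532 gene symbols in the deposited tables, found by symbol. Some of them were chosen by the pattern of their levels over these same clones, so their variation is described and not tested. The clones were derived from the uncloned population because their lipid droplets differ in size, and all were grown on gelatin with foetal bovine serum and leukaemia inhibitory factor. No other treatment or genotype is given, and which clone has which droplet size is not stated in the labels. Each clone is therefore 1 sample of no group, with 1 poly(A) RNA-seq library and no replicate, and levels are given clone by clone. The libraries held 10783718 to 14309662 estimated counts, with a median of 13802506. In a gene with a count of 0, levels under 0.207 to 0.288 CPM would still be possible, by library. CPM is the estimated count of a gene for each 1000000 counts of effective library size. Intervals below are 95% intervals that cover counting error only.

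Wnt proteins bind Frizzled receptors with the coreceptors Lrp5 and Lrp6, which stops the destruction complex built on Axin from degrading beta-catenin. Beta-catenin then enters the nucleus and acts through the TCF/LEF factors, of which Tcf7l1 works mostly as a repressor in mouse embryonic stem cells, while Tcf7 and Lef1 can activate with beta-catenin. In the mouse embryo Wnt3 is needed to form the primitive streak, where T is made, and in cultured stem cells Wnt signals act on self-renewal and on early mesoderm genes.

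The promoter windows of 4 of the genes are shown because their levels differ among the clones in 3 ways: Wnt3 and T were highest in clones 10 and 11, Sp5 in clones 4, 10 and 11, and Axin2 in clones 4 and 11. Sequences are from RefSeq, GRCm38.p6, and hold 250 bases before and 50 after a gene's start. They were searched on both strands for 4 TCF/LEF words, which do not overlap one another in these windows and are printed in capitals. The words were CTTTGAA, held on either strand by 5.14% of all such windows, CTTTGAT, held by 3.73% of them, CTTTGTA, held by 3.64% of them, and CTTTGTT, held by 5.85% of them. The windows are chr11:103773925-103774224 for Wnt3, chr17:8434173-8434472 for T, chr2:70474673-70474972 for Sp5 and chr11:108920099-108920398 for Axin2, all on the plus strand.
Wnt3: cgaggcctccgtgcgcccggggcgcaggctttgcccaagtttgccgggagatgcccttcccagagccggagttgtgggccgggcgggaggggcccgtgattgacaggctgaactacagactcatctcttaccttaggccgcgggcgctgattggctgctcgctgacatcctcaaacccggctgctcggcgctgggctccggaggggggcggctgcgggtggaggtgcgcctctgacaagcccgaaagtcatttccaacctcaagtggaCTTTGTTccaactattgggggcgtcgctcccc
T: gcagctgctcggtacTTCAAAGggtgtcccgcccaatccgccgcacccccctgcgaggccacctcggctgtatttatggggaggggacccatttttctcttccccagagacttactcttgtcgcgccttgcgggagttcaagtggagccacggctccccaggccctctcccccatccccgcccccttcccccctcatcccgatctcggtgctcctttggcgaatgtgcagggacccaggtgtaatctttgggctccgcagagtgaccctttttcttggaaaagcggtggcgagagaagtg
Sp5: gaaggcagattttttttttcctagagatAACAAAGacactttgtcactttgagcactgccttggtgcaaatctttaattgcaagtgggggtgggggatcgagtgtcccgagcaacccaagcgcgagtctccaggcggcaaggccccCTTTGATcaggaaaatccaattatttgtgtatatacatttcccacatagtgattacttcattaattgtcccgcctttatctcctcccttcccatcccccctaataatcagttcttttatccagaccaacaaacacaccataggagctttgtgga
Axin2: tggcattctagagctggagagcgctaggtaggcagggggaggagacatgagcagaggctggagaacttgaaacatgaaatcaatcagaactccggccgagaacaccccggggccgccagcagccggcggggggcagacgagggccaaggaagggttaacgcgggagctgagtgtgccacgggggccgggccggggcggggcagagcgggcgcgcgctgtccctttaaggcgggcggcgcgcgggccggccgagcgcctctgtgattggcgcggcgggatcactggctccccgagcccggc
Counted from 1 at the 5′ end of each window, Sp5 held AACAAAG, which reads on the other strand as the last of the 4 words, at positions 29 to 35, and the second word in the list, CTTTGAT, at positions 147 to 153. Wnt3 held CTTTGTT at positions 269 to 275, and T held TTCAAAG at positions 16 to 22. Axin2 held none of these words. Of 32817 such windows over all genes, 16.9% held at least 1 of the words and 1.94% held 2 or more. RefSeq had windows for 8 of the 10 genes, 12 windows in all, and besides these only the fourth of the 4 Lef1 windows held a word. A match is a string of letters and no evidence of binding, and its absence says nothing beyond the window.

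All 10 genes had a range, the highest minus the lowest clone in log2 CPM, of 1 or more, and 7 had a range of 2 or more. Of the 13363 genes whose mean reached 1 CPM, 35.2% had a range of 1 or more and 7.92% a range of 2 or more, and the median range was 0.79. Since several of the 10 were chosen for this variation, their counts describe the choice. Each of the 10 passed the minimum of 1 CPM, but Wnt9a and Hand1 did so through clones 10 and 11: without those clones they averaged 0.786 and 0.429 CPM. In bulk RNA, a smaller share of cells that express a gene and less RNA in each cell cannot be told apart.

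**Figure D1:**
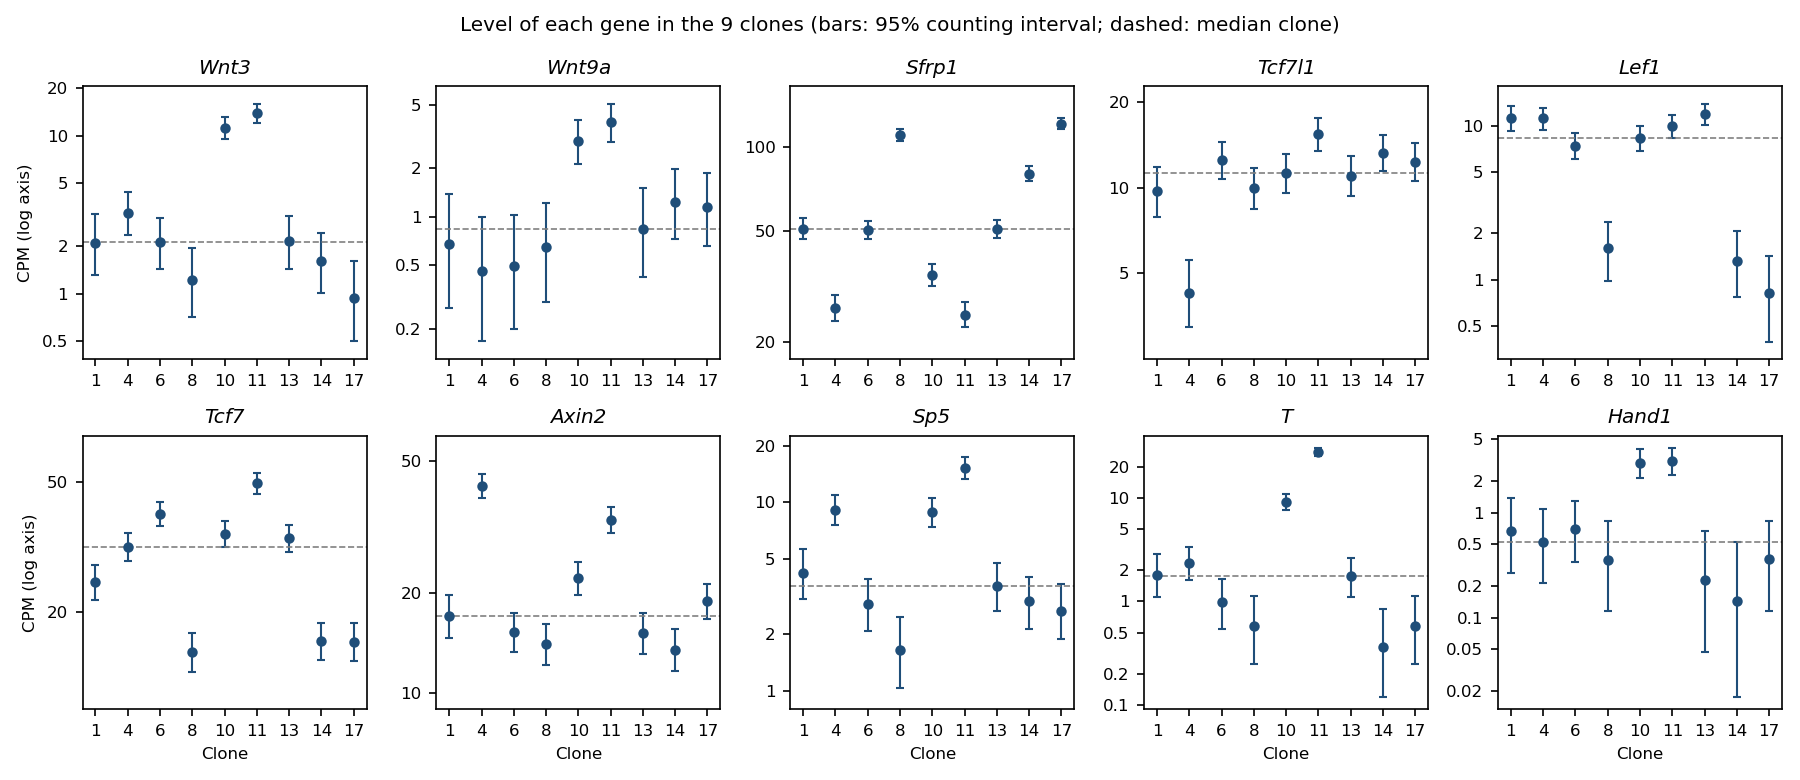
Level of each of the 10 genes in each clone, in CPM on a log axis; bars are exact 95% Poisson intervals of the count and the dashed line is the median clone. Wnt3, Wnt9a, T and Hand1 are highest in clones 10 and 11, Lef1 is lowest in clones 8, 14 and 17, and Tcf7l1 stands lowest in clone 4.

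Among the ligands, Wnt3 (chromosome 11, 103774150 to 103817957, GRCm38) was high in clone 10, at 11.2 CPM, and in clone 11, at 13.9 CPM. Clone 4 followed with 3.27 CPM, clones 1, 6 and 13 had 2.11, 2.12 and 2.14 CPM, and clones 8, 14 and 17 had 1.22, 1.60 and 0.938 CPM. Both lay apart from the other 7, by 3.43-fold from clone 10 to clone 4 (interval 2.43 to 4.92), and from each other by 1.24-fold (1.002 to 1.54). The remaining 6 neighbouring pairs in the order did not differ beyond counting. From clone 17 to clone 11 the level was 14.8-fold higher (8.47 to 28.3). Wnt9a (chromosome 11, 59306928 to 59333552), a ligand known for its part in joint formation, was lower throughout, with 41 and 56 counts in clones 10 and 11 and 6 to 17 counts elsewhere. Clones 10 and 11 thus had 2.96 and 3.87 CPM, clones 14 and 17 had 1.24 and 1.15 CPM, and the other 5 had 0.456 to 0.842 CPM. Wnt9a thus shared its high end with Wnt3 and not its low end: clone 4 had the lowest value, and clones 14 and 17 came next below clones 10 and 11. Clone 10 was 2.39-fold above clone 14, the next in order (1.33 to 4.49), and no other neighbours differed beyond counting.

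Sfrp1 (chromosome 8, 23411502 to 23449632) encodes a secreted Frizzled-related protein that binds Wnt ligands. Clones 17, 8 and 14 had 122, 111 and 80.6 CPM, clones 1, 13 and 6 had 51.1, 51.0 and 50.5 CPM, and clones 10, 4 and 11 had 34.9, 26.6 and 25.1 CPM. In CPM the 3 levels were apart beyond counting: clone 14 was 1.58-fold above clone 1 (1.42 to 1.75) and clone 6 was 1.45-fold above clone 10 (1.29 to 1.63). Clones 1, 13 and 6 did not differ among themselves beyond counting, nor did clones 4 and 11. From clone 11 to clone 17 the level was 4.85-fold higher (4.33 to 5.45). Sfrp1 was at the low end in the clones where Sp5 was at its highest, and at the high end in the clones where Lef1 was lowest. Both orders are descriptions over the same 9 libraries.

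Lef1 (chromosome 3, 131110471 to 131224356) was low in 3 clones. Clones 13, 1 and 4 had 11.9, 11.2 and 11.1 CPM of it, clones 11, 10 and 6 had 9.87, 8.33 and 7.42 CPM, and clones 8, 14 and 17 had 1.61, 1.32 and 0.824 CPM. A step parted these clones: clone 6 was 4.61-fold above clone 8 (2.95 to 7.83), and none of the other 7 neighbouring pairs differed beyond counting. From clone 17 to clone 13 it was 14.4-fold higher (8.13 to 30.6). Clones 10 and 11, which stood out in Wnt3 and T, lay near the median clone in Lef1. The median level of the other genes of chromosome 3 lay between -0.013 and 0.013 log2 units in each clone, so that the low level of Lef1 in clones 8, 14 and 17 had no counterpart in its chromosome.

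Tcf7 (chromosome 11, 52252371 to 52283014) showed the same clones at its low end with a smaller step. Clones 8, 14 and 17 had 15.0, 16.2 and 16.2 CPM, clone 1 had 24.7 CPM, clones 4, 6, 10 and 13 had 31.7 to 39.9 CPM, and clone 11 had 49.6 CPM. Clone 1 was 1.52-fold above clone 14 (1.26 to 1.82), and clone 11 was 1.24-fold above clone 6 (1.11 to 1.39). The genes around it on chromosome 11 were also lower in those clones (values below). With the chromosome's level subtracted, Tcf7 lay at -0.671, -0.600 and -0.581 log2 units from its median clone in clones 8, 14 and 17 and at -0.456 in clone 1. The largest gap was then the one below clone 11, of 0.366, so the step between clone 1 and those 3 clones was no longer the largest.

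Tcf7l1 (chromosome 6, 72626378 to 72789254) followed neither pattern. Clone 4 had 4.25 CPM, with 56 counts, and the other 8 clones ran from 9.69 CPM (clone 1) to 15.4 CPM (clone 11). Clone 1 was 2.28-fold above clone 4 (1.63 to 3.22), and no other neighbours differed beyond counting. On the TPM scale, where counts are scaled for transcript length, clone 4 was also lowest, but with 4.50 TPM beside 5.06 TPM in clone 1. In clone 4, 55.8% of the TPM of Tcf7l1 was assigned to a 463-base transcript that held 8.44 of its estimated counts, and in clones 8 and 17 the same transcript took 43.1% and 32.5%. It was at 0 in clones 1, 6, 10, 11 and 14, and how reads were divided between the overlapping transcripts was not tested.

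**Figure D2:**
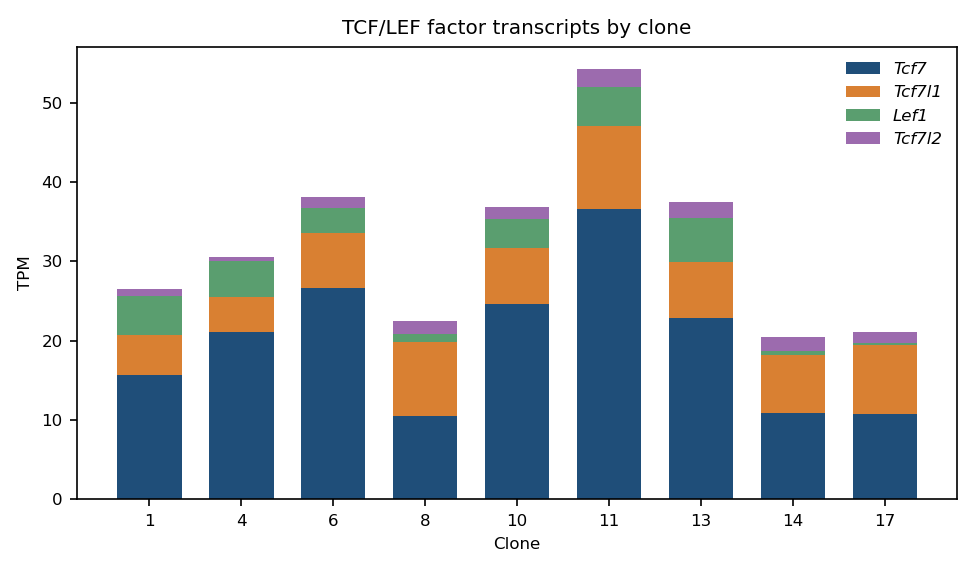
Summed TPM of the 4 TCF/LEF genes in each clone, stacked. The sum runs from 20.4 TPM in clone 14 to 54.3 TPM in clone 11, and Tcf7 is the largest part in each clone.

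On the TPM scale, where levels of different genes can be compared, Tcf7 was the most abundant of the 4 TCF/LEF genes in each of the 9 clones, from 10.5 TPM in clone 8 to 36.6 TPM in clone 11. Tcf7l1 came next with 4.50 to 10.5 TPM, although in clone 4 it was at 4.50 TPM beside 4.44 TPM for Lef1. Lef1 was at 0.340 to 5.63 TPM, and Tcf7l2, the fourth member, was at 0.579 to 2.34 TPM. In clones 8, 14 and 17 the level of Tcf7 was 1.12, 1.48 and 1.25 times that of Tcf7l1, and in the other 6 clones it was 3.09 to 4.68 times. Tcf7l1 accounted for 41.8, 35.9 and 40.9% of the summed TPM in clones 8, 14 and 17, against 14.7 to 19.4% in the other 6. Lef1 accounted for 4.40, 2.73 and 1.61% there and 8.28 to 18.3% elsewhere. Tcf7l1 itself was at 7.33 to 9.38 TPM in those 3 clones and at 4.50 to 10.5 TPM in the rest, so its larger share went with lower Tcf7 and Lef1. These values depend on the 463-base transcript: without it, Tcf7 was 1.96, 1.475 and 1.85 times Tcf7l1 in clones 8, 14 and 17, 10.6 times in clone 4 and 3.09 to 3.83 times in the other 5. Without it Tcf7l1 took 29.0, 35.9 and 31.9% of the sum in clones 8, 14 and 17, 7.09% in clone 4, where it was at 1.99 TPM and under Lef1, and 17.2 to 19.4% in the other 5. Both annotated Tcf7 transcripts contributed: the 2471-base transcript held 46.6 to 61.1% of the TPM and the 1742-base transcript the rest, in each clone.

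Axin2 (chromosome 11, 108920349 to 108950783), a scaffold of the destruction complex that beta-catenin itself induces and a common readout of the pathway, was highest in clone 4 with 42.1 CPM. Clone 11 had 33.2 CPM, clone 10 had 22.2 CPM, and the other 6 ran from 13.5 CPM (clone 14) to 18.9 CPM (clone 17). Clone 4 was 1.27-fold above clone 11 (1.12 to 1.44) and clone 11 was 1.497-fold above clone 10 (1.29 to 1.73), while the other 6 neighbouring pairs did not differ beyond counting. From clone 14 to clone 4 it was 3.12-fold higher (2.64 to 3.71). Sp5 (chromosome 2, 70474923 to 70477729), a zinc-finger factor induced by Wnt signals, shared those 3 clones and was highest in clone 11. Clones 11, 4 and 10 had 15.2, 9.12 and 8.88 CPM, and the rest ran from 1.65 CPM (clone 8) to 4.22 CPM (clone 1). The fold from clone 8 to clone 11 was 9.23 (5.999 to 14.9), and clone 10 was 2.10-fold above clone 1 (1.48 to 3.04). Clones 4 and 10 did not differ beyond counting in Sp5.

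Clone 4 combined values that stood at different ends of the order. It had the highest Axin2 and the lowest Tcf7l1 of the 9 clones, with its Sp5 not apart from clone 10 beyond counting, below clone 11 and above the other 6, while its Wnt3 was at 3.27 CPM and its T at 2.36 CPM, well under clones 10 and 11. Each is the value of 1 library.

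T (chromosome 17, 8434423 to 8442496), brachyury, the T-box factor that marks the primitive streak and drives mesoderm formation, had the largest range of the 10, 5.77 log2 units. Clone 11 had 27.9 CPM and clone 10 had 9.17 CPM. Clones 4, 1 and 13 had 2.36, 1.82 and 1.76 CPM, clone 6 had 0.989 CPM, and clones 8, 17 and 14 had 0.573, 0.577 and 0.364 CPM, from 8, 8 and 5 counts. Clone 11 was 3.04-fold above clone 10 (2.49 to 3.75) and clone 10 was 3.89-fold above clone 4 (2.61 to 5.97), and the other 6 neighbours did not differ beyond counting. From clone 14 to clone 11 the fold was 76.7 (32.6 to 237). In clone 11 T reached 31.2 TPM, close to the 36.6 TPM of Tcf7, and in clone 10 it was at 10.4 TPM. Its 2046-base transcript held 330 of the 404 counts in clone 11 and 99.3 of the 127 in clone 10. On the TPM scale, which weights short transcripts more, its 2 shorter transcripts took 42.0% of T in clone 11 and 48.8% in clone 10.

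Hand1 (chromosome 11, 57828705 to 57832818), a basic helix-loop-helix factor of extraembryonic and lateral mesoderm and of trophoblast giant cells, was low in every clone. It had 2.96 and 3.11 CPM in clones 10 and 11, from 41 and 45 counts. The other 7 ran from 0.146 CPM (clone 14) to 0.707 CPM (clone 6), with 2 to 10 counts. Clones 10 and 11 did not differ beyond counting, and clone 10 was 4.19-fold above clone 6 (2.06 to 9.38). Among the other 7 no neighbours in the order differed beyond counting.

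**Figure D3:**
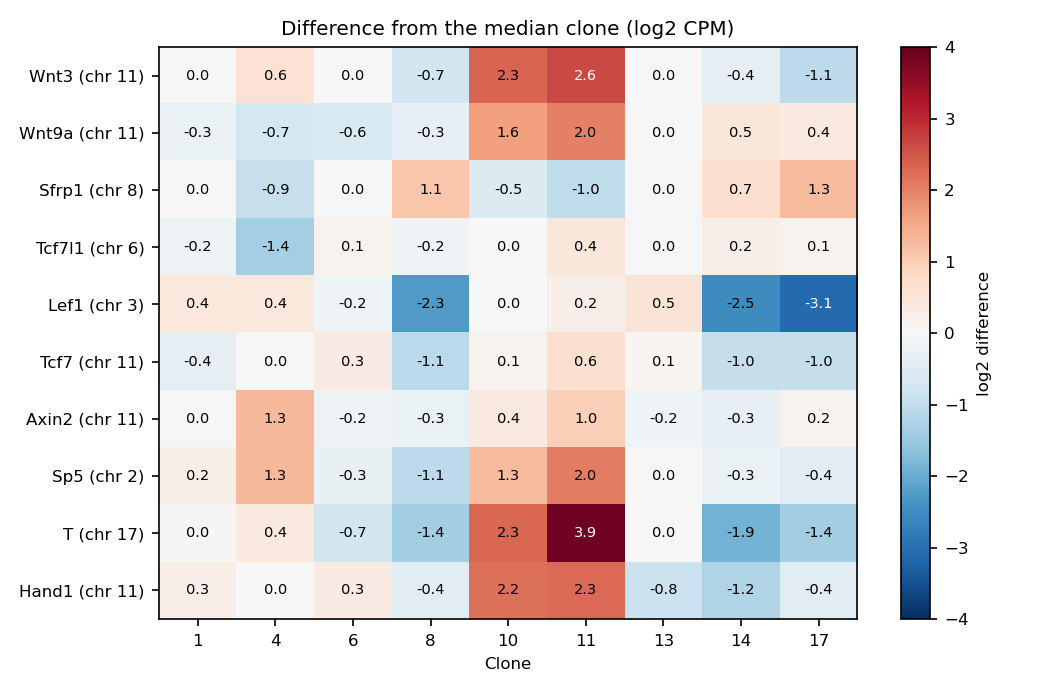
Difference of each gene from its median clone, in log2 CPM, with genes ordered by role and their chromosome in brackets. Clones 10 and 11 are above the median by 2 or more for Wnt3, T and Hand1 (clone 11 also for Wnt9a and Sp5), and Lef1 is below it by more than 2 in clones 8, 14 and 17.

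In clones 10 and 11 Wnt3, Wnt9a, T and Hand1 had their 2 highest levels. The same was so in 9.88% of the 13363 genes. Wnt3, Lef1, Tcf7 and T had their 3 lowest levels in clones 8, 14 and 17, as did 13.6% of all genes. With the chromosome's level subtracted, Wnt3 in clone 14 lay at -0.016 from its median clone, above clones 1, 6 and 13, and no longer had this order. Some of the 10 genes were picked for these patterns, and nothing is read from the counts.

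How alike 2 genes were was measured as the root mean square difference of their log2 CPM over the 9 clones, each gene centred on its median clone. No correlation was computed, because the clones fall into sets. Among the 10 genes the closest to Wnt3 was Hand1, at 0.54, with Sp5 almost as close, at 0.54, and Axin2 was closest to Sp5, at 0.58. T lay 0.75 from Wnt3. Sfrp1 and T were farthest apart, at 2.45, and Lef1 lay at 1.05 even from Tcf7, its nearest. Of 12419 other named genes, the 3 nearest to Wnt3 were Pou3f1, a POU factor of the formative state, at 0.22, Igfbp3, an insulin-like growth factor binding protein, at 0.24, and Rasef at 0.25. Wnt9a was nearest to Itga3, an integrin subunit, Magel2 and Efna5, at 0.25, 0.27 and 0.28. Sfrp1 was nearest to Pros1, protein S, at 0.16, Lgals3, galectin-3, at 0.17, and Rapgef3 at 0.20. Tcf7l1 was nearest to Rnpepl1, Pom121 and Arhgap42, at 0.17, 0.22 and 0.22.

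Lef1 was nearest to the interferon-inducible GTPase Irgm1 at 0.28, Magohb, a subunit of the exon junction complex, at 0.33 and Sdr42e1 at 0.38. Tcf7 was nearest to Parp14, Mxra7 and Limd2, at 0.19, 0.20 and 0.22, and Mxra7 and Limd2 lie on chromosome 11 with it. Axin2 was nearest to Alox5ap, Nefl, neurofilament light chain, and Zfp992, at 0.20, 0.21 and 0.23. For Nefl clone 4 was also the highest, at 106 CPM beside 69.1 CPM in clone 11. Sp5 was nearest to Vrtn, Dusp14 and the kinase gene Pim2, at 0.29, 0.33 and 0.36. For T the nearest were farther off, among them Psmb8, an immunoproteasome subunit, at 0.51 and Col1a2, a collagen chain, at 0.57. Hand1 was nearest to Timp2, Pkdcc and Gatm, at 0.31, 0.32 and 0.43. Psmb8, Col1a2, Gatm and Efna5, which was near Wnt9a, reached a mean of 1 CPM through clones 10 and 11. In those clones Gatm had 3.54 and 3.01 CPM, with under 1 CPM in each other clone. Psmb8 had 6.43 and 8.78 CPM there and at most 1.75 CPM elsewhere. Efna5 had 3.68 and 5.12 CPM there and at most 1.37 CPM elsewhere. How much of their likeness follows from the minimum of 1 CPM was not tested.

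Wnt3, Wnt9a, Tcf7, Axin2 and Hand1 lie on chromosome 11, which holds 1066 other genes. Relative to each gene's median clone, the median of these was -0.397, -0.357 and -0.383 in log2 CPM for clones 8, 14 and 17 and 0.006 to 0.116 for the other 6. With that level subtracted, Wnt3 in clones 10 and 11 lay 2.32 and 2.62 log2 units above its median clone, and Hand1 2.19 and 2.25. Wnt9a in clones 14 and 17 lay 0.842 and 0.779 above. The other 712 genes of chromosome 8, where Sfrp1 lies, had medians of 0.256 to 0.316 in clones 8, 10, 14 and 17 and of -0.209 to 0.000 in the other 5. With it subtracted, the range of Sfrp1 was 1.75 in place of 2.27 and that of Tcf7 1.304 in place of 1.71. Sfrp1 in clones 14 and 1 then lay at 0.342 and 0.204, and its largest gap, 0.728, parted clones 4, 10 and 11 from the rest, so the step above clone 1 was small. T and Sp5, on chromosomes 17 and 2, had chromosome medians within 0.036 log2 units of 0 in each clone.

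The rest of the pathway was taken from lists by role. Of 92 Wnt pathway genes, which include each of the 10 except Hand1, 66 had a mean of 1 CPM or more, and 16 of these had a range of 2 or more, 24.2%, beside 7.92% of all genes. Without the 10 genes it was 10 of 57, 17.5%, and the median range was 1.07. Genes of low level have larger ranges. With a minimum of 5 CPM 7 of 42 Wnt genes had a range of 2 or more, beside 3.39% of all genes. Of these 7, Sfrp1, Lef1, Sp5 and T were among the 10, and the rest were Wnt7b, Wls and Fzd2. T and Sp5 reached 5 CPM through clones 10 and 11, averaging 1.21 and 3.88 CPM without them. The lists are a description of these libraries and carry no test.

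Ligands had the largest median range of the 9 lists. Of 19 ligand genes 9 passed, 7 had a range of 2 or more and the median range was 2.58, beside 7.92% and 0.79 for all genes. The passing ligands were low, with a median of 0.327 to 2.04 TPM over the clones, except Wnt7b with 7.23 TPM. Genes of the destruction complex list had medians of 5.14 to 347 TPM, so the lists differ in level as well as in role. Wnt4, known for kidney and gonad development, reached 8.48 and 7.01 CPM in clones 10 and 11, with 0.869 to 1.57 CPM elsewhere. Wnt5b reached 8.05 CPM in clone 4, with 0.656 to 2.77 CPM in the other 8, so that not every ligand had its high end in clones 10 and 11. Of the 10 ligands that did not pass, Wnt1 had no count in any clone and Wnt7a reached 1.88 and 2.14 CPM in clones 10 and 11. Wls, which carries Wnt proteins to the cell surface, was lowest in clones 1, 4, 6 and 13, which had 3.55 to 5.89 CPM. Clones 10 and 11 had 18.1 and 19.9 CPM of it, and clones 8, 14 and 17 had 12.8, 9.29 and 16.2 CPM. Porcn, which adds the lipid that Wnt proteins need, had a range of 0.85 and its lowest levels in clones 10 and 11, 9.17 and 9.61 CPM.

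Receptors had smaller ranges, with 2 of 12 at a range of 2 or more and a median of 0.83, beside 7.92% and 0.79 for all genes. Fzd1 reached 2.74 and 2.28 CPM in clones 10 and 11, with 0.480 to 0.842 CPM elsewhere. Fzd1 passed through clones 10 and 11, with a mean of 0.697 CPM without them. Fzd2 reached 16.9, 16.7 and 11.02 CPM in clones 10, 11 and 4, with 3.90 to 6.34 CPM elsewhere. Fzd9 had the third largest range, 1.29. Lrp5 and Lrp6 had ranges of 0.31 and 1.11. Of 9 genes of the R-spondin axis, which controls Frizzled receptors at the surface, 4 passed and none had a range of 2 or more. Lgr6, Rspo1 and Znrf3 led with 1.58, 1.52 and 0.96. None of the 11 genes of the Dishevelled and destruction complex list had such a range either. Its median was 0.58, under that of all genes, and after Axin2 its largest were Dvl3 and Btrc with 1.07 and 0.76. Ctnnb1, beta-catenin itself, was at 738 to 851 CPM in the 9 clones, a range of 0.21.

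**Figure D4:**
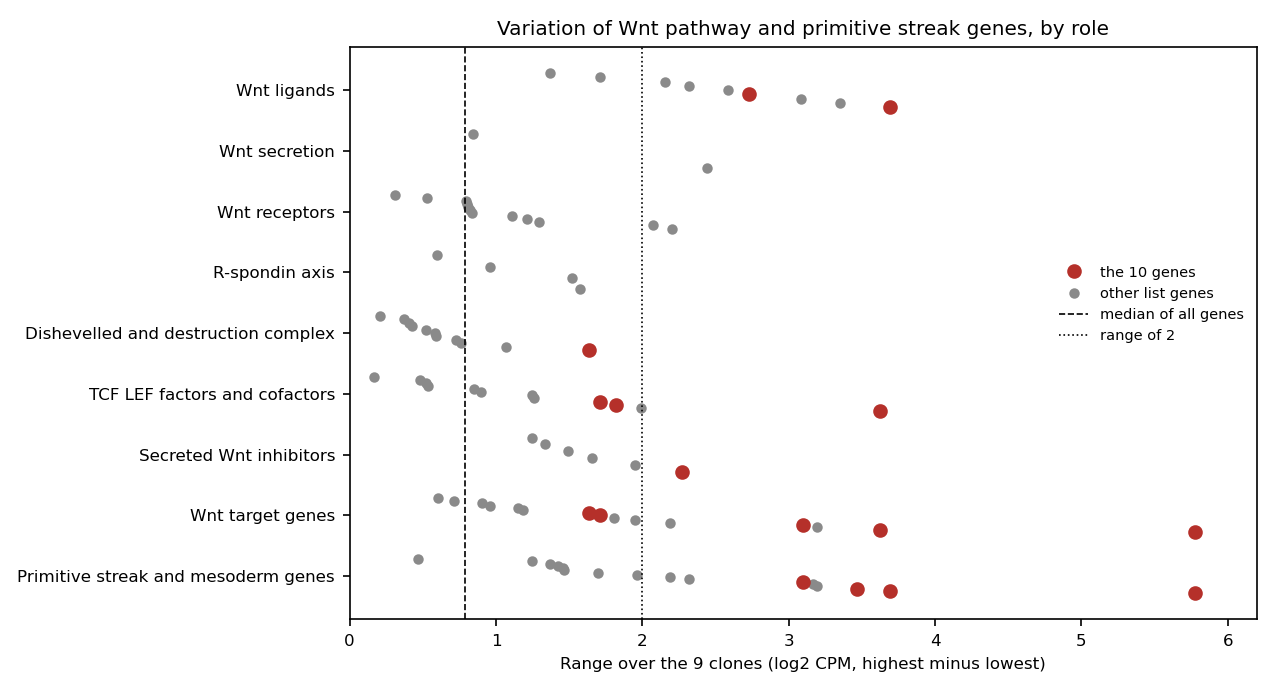
Range over the 9 clones (log2 CPM, highest minus lowest) of each gene with a mean of 1 CPM or more, by role; red points are the 10 genes and grey points the other genes of a list, and a gene can stand in more than 1 list. The dashed line is the median of all genes, 0.79, and the dotted line a range of 2. Ligands and primitive streak genes lie furthest right and most genes of the destruction complex lie left of the dashed line.

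Among nuclear factors, 12 of 13 passed and Lef1 alone had a range of 2 or more, with Tcf7l2 just under it at 1.99. Tcf7l2 was at 5.27 CPM in clone 11 and at 1.44 and 1.22 CPM in clones 1 and 4. Of 14 secreted inhibitors 6 passed, each with a range of 1.24 or more, and Sfrp1 had the largest. Notum, which removes the lipid from Wnt proteins and is itself a target, reached 82.4, 57.6, 61.5 and 74.7 CPM in clones 1, 4, 6 and 13, with 21.2 to 29.4 CPM in the other 5. Its levels in clones 10 and 11, 29.4 and 29.1 CPM, were low where those of Sp5 were high. For Sfrp5 clone 1 had 3.74 CPM, clones 8, 14 and 17 had 1.36, 1.31 and 1.299 CPM, and clone 10 had 1.08 CPM. Of 20 target genes 15 passed and 5 of these, T, Lef1, Cdx2, Sp5 and Cdx1, had a range of 2 or more, beside 7.92% of all genes. Cdx2, a caudal factor of trophoblast and posterior mesoderm, reached 5.60, 3.11 and 3.04 CPM in clones 11, 10 and 4, with 0.480 to 1.24 CPM elsewhere, the same 3 clones as Sp5. Cdx1 had its high end in clones 17, 14, 4 and 8, at 3.82, 2.99, 2.13 and 2.08 CPM. Ccnd1 and Myc had ranges of 0.71 and 0.60. Target genes thus did not share 1 order of clones.

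Of 25 primitive streak and mesoderm genes 16 passed and 8 had a range of 2 or more, beside 7.92% of all genes. Without the 10 genes it was 4 of 12, with a median range of 1.58. After T, Wnt3 and Hand1, the largest ranges were those of Cdx2 and of Kdr, the receptor for vascular endothelial growth factor, with 3.19 and 3.16. For Kdr clones 11 and 1 had 8.36 and 6.81 CPM, clones 4, 6, 10 and 13 had 3.61 to 5.51 CPM, and clones 8, 14 and 17 had 1.58, 0.801 and 1.44 CPM. The low end of Kdr thus lay in the clones with the least Lef1. Wnt8a, a ligand of the streak, reached 5.39, 4.56 and 2.82 CPM in clones 4, 11 and 10, with 0.960 to 1.804 CPM elsewhere. Bmp4, a signal for mesoderm and germ cells, ran the other way, with 30.1, 31.6 and 36.5 CPM in clones 10, 11 and 4 and 69.0 to 118 CPM in the other 6. Eomes, a T-box factor of the streak, ran from 2.29 CPM (clone 8) to 7.79 CPM (clone 11), and Nodal, the ligand that maintains the streak, had a range of 0.47. The 9 genes that did not pass included Mixl1, Gsc, Mesp1, Tbx6, Msgn1 and Fgf8. Of those 9, Mixl1, a homeobox gene of the streak, reached the highest level, 3.04 CPM in clone 11, and it was at 0.304 to 0.795 CPM in the other 8.

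The stem cell label was checked against markers. Each of 10 embryonic stem cell markers was at 57.9 CPM or more in each clone, and they summed to 4372 and 4092 CPM in clones 10 and 11 and to 5935 to 6671 CPM in the other 7. Some markers of other cell types were also high in clones 10 and 11, where Wnt3, T and Hand1 were high. Their part in these results was not tested. The 12 fibroblast and smooth muscle markers summed to 110 and 143 CPM in clones 10 and 11 and to 15.7 to 35.0 CPM elsewhere. Of these, 8 passed and 6 were highest in clones 10 and 11, beside 9.88% of all genes. Col1a1, Fbn1 and Tagln were among the 6. The other 3, Col1a2, Col3a1 and Acta2, passed through clones 10 and 11, averaging 0.644, 0.269 and 0.555 CPM elsewhere. Thy1 and Pdgfrb also passed and did not share this order. Thy1 was at 7.37 and 7.46 CPM in clones 10 and 11, under the 8.11 to 10.4 CPM of clones 1, 4, 6 and 13. Pdgfrb was at 5.78 and 4.56 CPM in clones 10 and 11, beside 5.47 and 5.02 CPM in clones 1 and 6. Lum, Dcn and Postn reached no more than 0.0766, 0.622 and 0.484 CPM in any clone. The 10 trophoblast markers summed to 499 and 530 CPM in clones 10 and 11 and to 69.8 to 165 CPM elsewhere, carried by Krt8 and Krt18. Clones 10 and 11 were highest for 4 of the 7 that passed, beside 9.88% of all genes. Tfap2c did not follow Krt8 and Krt18: clone 6 was highest with 83.7 CPM, before clone 13 with 80.4 CPM and clone 1 with 72.2 CPM. Clone 11 had 58.1 CPM of Tfap2c, clone 10 had 42.3 CPM, and clone 17 was lowest with 37.6 CPM. Prl3d1 had no count in any clone, and Plac1 and Elf5 reached no more than 0.361 and 1.61 CPM. The 8 neural markers summed to 266 and 223 CPM in clones 10 and 11 and to 145 to 174 CPM elsewhere, with Nes at 106 and 97.6 CPM in those clones. Sox1, which had the largest range of the neural list, went the other way: clones 8, 14 and 17 had 5.30, 2.91 and 7.14 CPM, clones 10 and 11 had 0.723 and 0.277 CPM, and the rest had 0.456 to 0.777 CPM. Neurog2 and Zic1 were under 0.4 CPM in each clone. Markers of extraembryonic endoderm summed to 7.29 to 15.8 CPM, with 10.9 and 14.7 CPM in clones 10 and 11. Those of extraembryonic mesoderm and amnion, Hand1 and Bmp4 among them, summed to 43.5, 47.4 and 51.9 CPM in clones 4, 10 and 11 but to 77.9 to 127 CPM in the other 6. Bmp4 made up most of that sum and was left out after its values were seen. Without it the 6 remaining genes summed to 17.4 and 20.3 CPM in clones 10 and 11 and to 7.01 to 11.7 CPM elsewhere. Of these, Tbx20, Hand1 and Tbx4 were highest in clones 10 and 11. Kdr was highest in clone 11, at 8.36 CPM, but at 3.61 CPM in clone 10, under clones 1, 4, 6 and 13. Isl1 was lowest in clone 11, at 0.138 CPM, and Foxf1 had no count in clone 10.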

How the data were processed

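Poly(A) RNA of 9 clones was sequenced from stranded mRNA libraries, per the labels' protocols. The submitters' processing notes name CASAVA 1.8, FastQC, Trimmomatic 0.33 and kallisto 0.43.1, with mm10 and GRCm38; no source used here gives the annotation release. The deposited tables hold, per the file headers, estimated counts, often fractional, and TPM values scaled for effective length, both by the authors' tool, for 115270 transcripts. kallisto divides reads between overlapping transcripts, so values of single transcripts are less certain than gene sums.

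Of the transcripts, 98.53% had their Ensembl identifier in GENCODE M21 (GRCm38), through which they were summed to 35532 gene symbols. Unmatched transcripts held 0.641 to 0.773% of the counts. CPM used edgeR 4.0.16 TMM factors, with a prior count of 2 on the log2 scale. A mean of 1 CPM was the minimum for ranges. Fold intervals are exact conditional binomial and count intervals exact Poisson, on rounded counts; reads without molecular identifiers are not independent molecules. Without groups no difference was tested; Dixon's gap ratio is given as a description. Named genes are the 10, up to 3 per list of largest range and the 3 nearest to each of the 10, of which 1 is not reported here. Others were named after their values were seen. They are Wnt1, Wnt7a, Wnt7b, Wnt8a, Porcn, Lrp5, Lrp6, Ctnnb1, Cdx1, Ccnd1, Myc, Bmp4, Eomes, Nodal, Mixl1 and the named markers. The 10 genes and the lists were chosen with earlier results of these data known. Alternatives were DESeq2 1.42.0 median-ratio factors, log2(TPM + 1), a prior count of 0.5, no filter or 5 CPM, the chromosome median subtracted and each clone left out. Steps were tested on simulated data. Tools were R 4.3.3, Python 3.11.15, numpy 2.4.6, pandas 2.3.3, scipy 1.17.1 and matplotlib 3.10.9.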

Additional observations from a re-analysis of the deposited data

Results flagged for a closer look

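Tcf7l1 in clone 4 stood apart from the other 8 clones: its gap to clone 1, the next lowest, was 0.637 of the whole range over the 9 clones in log2 CPM, above Dixon's 95% critical value for 9 samples. Such a value is passed by chance in about 1 of 20 groups, and the 10 genes were each looked at over the same 9 clones, which are not replicates of a group. Some of the 10 were chosen by their pattern over these clones, and Tcf7l1 may be one of them, so the ratio is a description and no test. On the log2(TPM + 1) scale clone 4 was the lowest but did not stand apart: the largest gap, 0.395, parted clones 1 and 4 together from the rest. The range over the clones was 1.07 there in place of 1.82. The TPM of clone 4 depended on the 463-base transcript, which held 8.44 estimated counts. Without it clone 4 had 1.99 TPM of Tcf7l1 and the other 8 clones had 5.06 to 10.5 TPM. How reads were divided between the transcripts was not tested. Without clone 4 the range in log2 CPM was 0.66. No other of the 10 genes had its highest or lowest clone past that value.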

How the results depend on the processing

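With median-ratio factors, a prior count of 0.5 or no filter, the 10 genes kept 7 ranges of 2 or more and 7 gaps between neighbouring clones of 1 or more, and with the chromosome median subtracted there were 6 of each. With a mean of 5 CPM, which leaves 7 of the 10 genes, 4 had a range of 2 or more and 4 such a gap. The same minimum left 7 Wnt pathway genes of 42 and 2 streak genes of 5 with a range of 2 or more, in place of 16 and 8. Of all genes 3.39% had such a range there. The 2 streak genes were T and Sp5, both among the 10 genes. They averaged 1.21 and 3.88 CPM without clones 10 and 11, so they reached 5 CPM through those clones. Of the 7 Wnt pathway genes, Sfrp1, Lef1, Sp5 and T were among the 10. With log2(TPM + 1), which narrows the ranges of low genes, there were 8 Wnt pathway genes and 4 streak genes, beside 3.17% of all genes. The 4 streak genes were T, Sp5, Wnt3 and Hand1, all among the 10. Wnt3, Sfrp1, Lef1, Sp5 and T, also among the 10, were part of the 8. Since some of the 10 were chosen for their variation, counts that include them partly describe the choice. On that scale 4 of the 10 genes had a gap of 1 or more. With each clone left out, counts were 6 to 7 for the 10 genes, 6 to 8 for gaps, 14 to 16 for Wnt pathway genes and 6 to 8 for streak genes. The share of all genes with a range of 2 or more was then 6.7 to 7.68%. Without clones 10 and 11, an alternative chosen after seeing the data, these counts were 4, 4, 9 and 5. There 8 of the 10 genes, 64 Wnt pathway genes and 15 streak genes passed. Ranges were smaller in all genes with these clones left out: 5.1% reached 2 or more, beside 7.92% over all clones. Leaving out clones 8, 14 and 17, also chosen then, gave 5, 6, 12 and 6, and took the range of Lef1 to 0.67 from 3.63 over all clones. In that setting 3.87% of all genes had a range of 2 or more. Without clone 4 the range of Tcf7l1 was 0.66. Of 130 planned recalculations of single ranges, 115 stayed within the counting interval of the fold. Many of these were fixed in advance, because leaving out a clone that is neither highest nor lowest cannot change a range. With log2(TPM + 1) the ranges of Wnt3, Wnt9a, Lef1, Sp5, T, Hand1 and Tcf7l1 left that interval. Those of Sfrp1, Tcf7 and Axin2 did not. Depth limits the low end most: Hand1 had 2 counts in clone 14 and T had 5. No paired analysis was possible because the labels give no groups.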

Other observations

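Some pathway genes too low for the lists above were also highest in clone 11 or in clones 10 and 11. Rspo3, an R-spondin that amplifies Wnt signals, reached 1.87 CPM in clone 11, with 0.146 to 0.650 CPM elsewhere. Rnf43, a ligase that removes Frizzled receptors, reached 1.66 CPM in clone 11, with 0.283 to 1.08 CPM elsewhere. Fgf8, a growth factor of the streak, reached 2.00 and 1.14 CPM in clones 11 and 4, with 0.104 to 0.864 CPM in the other 7. Tbx6, a T-box factor of paraxial mesoderm, did not follow T: clones 10, 4 and 11 had 1.37, 1.14 and 0.346 CPM. Other low genes had another order. Wif1 was lowest in clone 10, at 0.0722 CPM, and Foxa2 was lowest in clone 11, at 0.0691 CPM. How many low genes were highest in clone 11 was not counted. These genes were named after their values were seen, and each had few counts.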
